A study of Mus musculus with 6 samples.

Results

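Hif1a, the 3 prolyl hydroxylase genes Egln1, Egln2 and Egln3, and 6 genes induced by hypoxia (Plin2, Ndrg1, Kdm3a, Bnip3, Vegfa and Ankrd37) were examined in cultured mouse CD8+ T cells. These 10 genes were taken by name, without glycolysis genes, and with earlier results of these data known. All 10 were present among the 14481 genes of the count table and passed the filter on low counts. The cells were sorted wild-type CD8+ T cells, activated on plates coated with anti-CD3e (1 µg/ml) with soluble anti-CD28 (1 µg/ml) and mouse IL-2 (0.1 µg/ml). After 1 day they received conditioned medium (CM) from astrospheres, which the labels name pSTAT3+ or pSTAT3-, and RNA was taken at day 3. The groups are called STAT3+ CM and STAT3- CM here and had 3 libraries each. Every library was from CM-treated wild-type cells, so a level without CM was not analysed here. The comparison asks how the secreted products of pSTAT3+ astrospheres, set against those of pSTAT3- astrospheres, bear on the T cells. The labels give no oxygen level and leave unsaid whether each replicate came from its own mouse or culture. The p-values therefore reflect only how far these samples spread, and that spread may be technical.

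HIF1 is a transcription factor made of the oxygen-regulated subunit HIF1A and its constant partner ARNT. With oxygen present, the EGLN prolyl hydroxylases mark HIF1A for the VHL ubiquitin ligase and it is destroyed, while low oxygen or slowed hydroxylases let it accumulate and bind hypoxia response elements with the core letters ACGTG or GCGTG. In CD8+ T cells, activation through the T cell receptor and IL-2 also raises HIF1A, which supports glycolysis and effector functions. This control acts on the protein, which was not measured here.

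Of the 10 genes, 9 matched a RefSeq promoter window (GRCm38.p6, from 250 bases before to 50 after a start), in 13 windows, and Ndrg1 is named only. ACGTG and GCGTG were searched on both strands. ACGTG reads CACGT from the other strand, and the palindrome CACGTG holds both. Of the 9 genes 8 held ACGTG in at least 1 window, as did 21.8% of all 27025 genes with a window. GCGTG was held by 7 of the 9 genes and by 35.2% of all. For Vegfa both matches lay in the window at chr17:46025114-46025413, and its window at chr17:46032328-46032627 held neither. These are matches of letters, not bound sites, and genes known as HIF1 targets were picked for the group by name. The windows shown are those of the 3 genes whose groups did not overlap and that have a window (Egln3, Plin2 and Kdm3a), and of Bnip3 and Ankrd37 for comparison. Capitals mark ACGTG or CACGT. All 5 lie on the minus strand and are written 5′ to 3′, at chr12:54203825-54204124 for Egln3, chr4:86670010-86670309 for Plin2, chr6:71632868-71633167 for Kdm3a, chr7:138909457-138909756 for Bnip3 and chr8:45999801-46000100 for Ankrd37.
Egln3: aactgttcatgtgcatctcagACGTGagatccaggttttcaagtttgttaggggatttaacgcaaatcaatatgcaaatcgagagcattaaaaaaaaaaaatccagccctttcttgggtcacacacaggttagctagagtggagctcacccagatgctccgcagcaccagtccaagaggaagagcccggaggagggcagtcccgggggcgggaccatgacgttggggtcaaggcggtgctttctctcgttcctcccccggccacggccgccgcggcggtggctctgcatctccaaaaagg
Plin2: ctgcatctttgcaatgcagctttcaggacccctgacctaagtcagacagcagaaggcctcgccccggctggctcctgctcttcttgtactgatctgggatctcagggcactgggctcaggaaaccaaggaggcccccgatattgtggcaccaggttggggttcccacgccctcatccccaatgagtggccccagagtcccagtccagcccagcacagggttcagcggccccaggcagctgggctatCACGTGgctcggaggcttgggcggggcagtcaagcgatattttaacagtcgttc
Kdm3a: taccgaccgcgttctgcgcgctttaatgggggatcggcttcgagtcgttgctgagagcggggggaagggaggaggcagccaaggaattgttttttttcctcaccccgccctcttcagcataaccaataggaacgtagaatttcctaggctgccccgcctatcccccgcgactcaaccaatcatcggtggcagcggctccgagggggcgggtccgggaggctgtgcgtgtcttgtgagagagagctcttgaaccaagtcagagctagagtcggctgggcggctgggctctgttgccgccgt
Bnip3: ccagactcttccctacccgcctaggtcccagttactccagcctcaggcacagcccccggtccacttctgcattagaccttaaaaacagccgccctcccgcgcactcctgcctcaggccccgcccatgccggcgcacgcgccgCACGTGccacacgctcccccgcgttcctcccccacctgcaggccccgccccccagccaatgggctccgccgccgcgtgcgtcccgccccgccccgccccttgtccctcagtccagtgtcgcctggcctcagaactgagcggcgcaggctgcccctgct
Ankrd37: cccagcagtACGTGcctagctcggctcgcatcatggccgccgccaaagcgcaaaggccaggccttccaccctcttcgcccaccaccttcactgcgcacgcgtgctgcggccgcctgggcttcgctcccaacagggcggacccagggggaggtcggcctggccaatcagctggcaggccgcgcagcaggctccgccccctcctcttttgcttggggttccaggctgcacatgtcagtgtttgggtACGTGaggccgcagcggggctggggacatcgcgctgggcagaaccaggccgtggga

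Egln3 held 1 match that began 229 bases before its start, and Plin2 held a CACGTG that began 4 bases before the start. Bnip3 held a CACGTG that began 108 bases before its start, and Ankrd37 held ACGTG at 241 and 6 bases before. None of the 3 Kdm3a windows in the table held ACGTG, and 1 held GCGTG. Matches were thus present both in genes whose groups did not overlap and in genes whose groups did.

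Levels are in CPM, the count of a gene relative to the TMM-scaled total of its library. Log2 fold changes are STAT3+ CM over STAT3- CM by edgeR, with the standard error (SE), and adjusted p-values come from the quasi-likelihood test of edgeR, with Benjamini-Hochberg adjustment over 14319 genes. Total counts ran from 43346089 to 53630514 per library. In this comparison 0 genes passed an adjusted p of 0.05 by edgeR (0% called), 521 genes (3.64%) had an unadjusted p under 0.05, and DESeq2 called 48 (0.331%), with an unadjusted p under 0.05 in 3.65%. The groups did not overlap in 1139 genes (7.95%). Over all genes, STAT3- CM replicate 3 and STAT3+ CM replicate 1 lay farthest out on the first and second principal component.

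Egln3 and Plin2 stood higher and Ndrg1 and Kdm3a lower in STAT3+ CM, with no overlap between the groups, and none of the 10 genes passed the threshold by edgeR. Hif1a, Egln1, Egln2, Bnip3, Vegfa and Ankrd37 overlapped between the groups. The 4 of 10 genes without overlap compare with 7.95% of all genes tested (2 higher against 3.78%, and 2 lower against 4.18%). An unadjusted p under 0.05 by edgeR was found for 3 of 10, against 3.64% of all genes. Of these, Egln3 and Plin2 were on the higher side, with 1.34% of all genes, and Ndrg1 on the lower, with 2.3%. DESeq2 called 1 of the 10, Plin2, on the higher side, where it called 0.104% of all genes. Because the 10 genes were chosen with earlier results of these data known, these shares cannot test whether the group stands out. Of the 10 log2 fold changes 7 were positive, with a median of 0.11, against 50.2% positive and a median of 0.00076 over all genes tested. In bulk RNA, fewer cells of a type and less RNA per cell cannot be told apart.

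**Figure D1:**
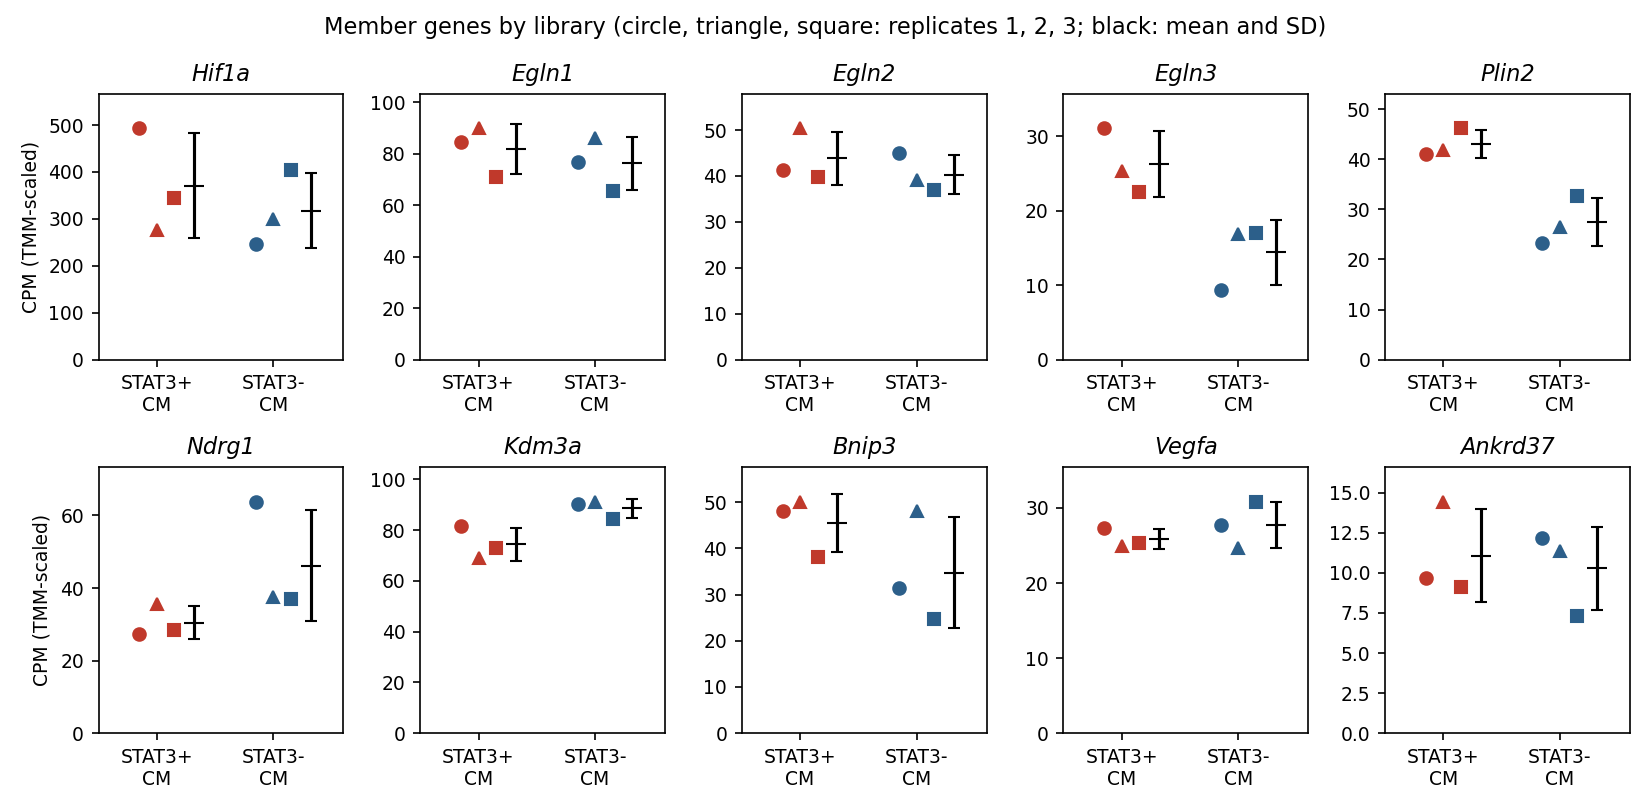
TMM-scaled CPM of the 10 genes in each library, with STAT3+ CM in red and STAT3- CM in blue. Marker shapes give the replicate and black bars the mean and SD of 3 libraries, and each axis starts at 0. Egln3 and Plin2 lie higher and Ndrg1 and Kdm3a lower in all 3 STAT3+ CM libraries than in any STAT3- CM library.

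Hif1a encodes the oxygen-regulated subunit. It had 493, 275 and 344 CPM in STAT3+ CM replicates 1, 2 and 3, against 247, 300 and 405 CPM in STAT3- CM replicates 1, 2 and 3. The groups overlapped, with a wide spread within each medium. Its log2 fold change was 0.23 (SE 0.23, 95% interval -0.29 to 0.74, adjusted p = 0.989 by edgeR). Without STAT3+ CM replicate 1, the library with the most Hif1a, the log2 fold change was -0.034.

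The hydroxylases are the oxygen sensors, of which EGLN1 is the main one for HIF1A in most cells, while Egln3 is itself induced by HIF1 in many cells and so acts in a feedback loop. Egln3 had 31.1, 25.3 and 22.5 CPM in STAT3+ CM, against 9.43, 16.9 and 17.0 CPM in STAT3- CM, in replicate order. All 3 STAT3+ CM libraries lay above all 3 STAT3- CM libraries, and STAT3- CM replicate 1 was the lowest. The means were 26.3 ± 4.40 CPM in STAT3+ CM and 14.4 ± 4.34 CPM in STAT3- CM (SD, n = 3 each), a fold of 1.82. Its log2 fold change was 0.86 (SE 0.23, 95% interval 0.36 to 1.37), with an unadjusted p of 0.00336 and an adjusted p of 0.707 by edgeR. DESeq2 gave an adjusted p of 0.0705, the lowest of 18 alternatives, of which the highest was 1, while the log2 fold change stayed between 0.63 and 1.00.

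Egln1 and Egln2 did not share this separation. Egln1 had 84.7, 90.0 and 71.1 CPM in STAT3+ CM, against 77.0, 86.3 and 65.5 CPM in STAT3- CM. Replicate 3 was the lowest library of both groups, and the groups overlapped. For Egln1 edgeR gave 0.10 on the log2 scale (SE 0.14, 95% interval -0.22 to 0.42, adjusted p = 0.989). Egln2, the nuclear paralog, had 41.3, 50.4 and 39.9 CPM in STAT3+ CM, against 45.0, 39.0 and 36.9 CPM in STAT3- CM. These also overlapped, with STAT3+ CM replicate 2 the highest library (log2 fold change 0.12 with an SE of 0.14, adjusted p = 0.989 by edgeR).

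The make-up of the hydroxylase transcripts was compared per length. Of the summed CPM per kilobase of the 3 genes, Egln3 made up 23.4%, 18.1% and 19.9% in STAT3+ CM, against 8.63%, 14.3% and 16.9% in STAT3- CM. The lowest STAT3+ CM share was above the highest STAT3- CM share, by little. The mean share was 20.4% ± 2.68 in STAT3+ CM, against 13.3% ± 4.23 in STAT3- CM (SD, n = 3 each). An exact permutation test gave a two-sided p of 0.1, the smallest that 3 against 3 libraries can give, so it could not pass the threshold. Egln1 remained the most abundant of the 3 in every library, at 46.6% to 47.6% in STAT3+ CM, against 48.3% to 54.2% in STAT3- CM. The ratio of Egln3 to Hif1a counts was 0.0630, 0.0920 and 0.0653 in STAT3+ CM, against 0.0382, 0.0563 and 0.0420 in STAT3- CM, again without overlap, and it holds the same Egln3 counts.

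**Figure D2:**
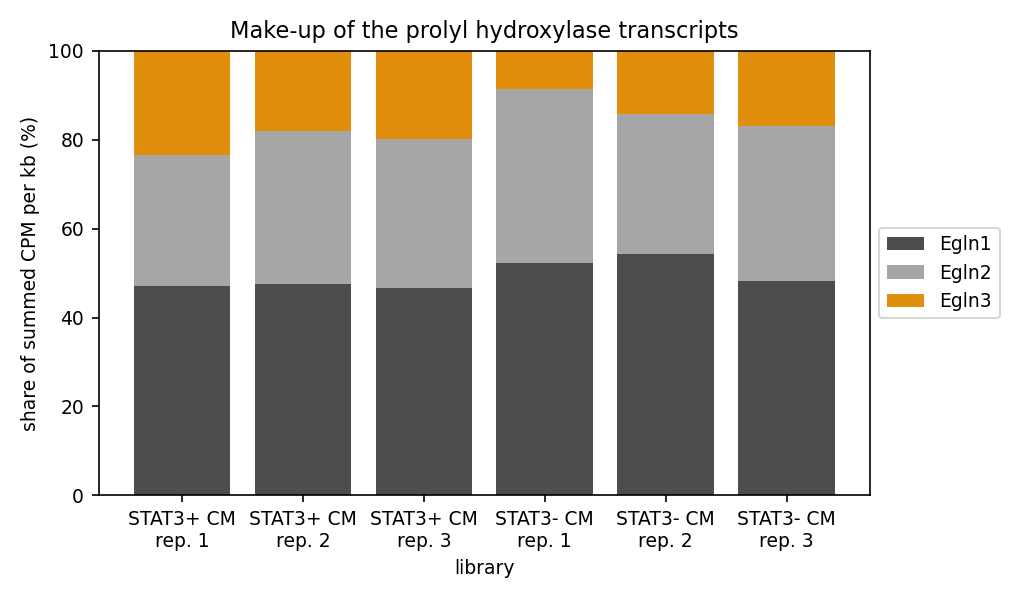
Share of Egln1, Egln2 and Egln3 in the summed CPM per kilobase of the 3 genes, as stacked bars with 1 bar per library. The Egln3 part at the top is 18.1% to 23.4% in STAT3+ CM, against 8.63% to 16.9% in STAT3- CM.

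Plin2 encodes perilipin 2, a protein coat of lipid droplets whose gene responds to hypoxia and to fatty acids. It had 41.0, 41.8 and 46.2 CPM in STAT3+ CM, against 23.3, 26.5 and 32.6 CPM in STAT3- CM. The STAT3+ CM libraries lay close together, and each was above the highest STAT3- CM library. The mean was 42.99 ± 2.78 CPM in STAT3+ CM, against 27.5 ± 4.74 CPM in STAT3- CM (SD, n = 3 each), a fold of 1.56. The log2 fold change was 0.64 (SE 0.15, 95% interval 0.32 to 0.97), with an unadjusted p of 0.00131 and an adjusted p of 0.563 by edgeR. DESeq2 called it (0.65 on the log2 scale, SE 0.17, adjusted p = 0.0373), and over 18 alternatives the adjusted p ran from 0.0373 to 1.

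Bnip3, a mitochondrial protein that marks mitochondria for removal by autophagy, overlapped between the groups. It had 48.1, 50.1 and 38.2 CPM in STAT3+ CM, against 31.4, 48.2 and 24.7 CPM in STAT3- CM. STAT3- CM replicate 2 lay among the STAT3+ CM libraries, and the other 2 STAT3- CM libraries lay below them. The log2 fold change was 0.39 (SE 0.22, adjusted p = 0.989 by edgeR). It was 0.69 without STAT3- CM replicate 2 and 0.19 without STAT3- CM replicate 3.

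Ndrg1 encodes a stress-responsive protein induced by hypoxia in many cell types. It had 27.2, 35.7 and 28.4 CPM in STAT3+ CM, against 63.8, 37.6 and 36.9 CPM in STAT3- CM. The groups did not overlap, but only STAT3- CM replicate 1 stood far above the rest. The mean was 30.4 ± 4.58 CPM in STAT3+ CM, against 46.1 ± 15.3 CPM in STAT3- CM (SD, n = 3 each), and the log2 fold change was -0.60 (SE 0.22, 95% interval -1.08 to -0.12, unadjusted p = 0.0198, adjusted p = 0.989 by edgeR). Without STAT3- CM replicate 1 the log2 fold change was -0.29, with an unadjusted p of 0.123 by edgeR.

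Kdm3a encodes a histone demethylase that itself needs oxygen. It had 81.5, 68.8 and 72.8 CPM in STAT3+ CM, against 90.4, 91.2 and 84.3 CPM in STAT3- CM. The groups were narrow and did not overlap, with a gap of under 3 CPM between STAT3+ CM replicate 1 and STAT3- CM replicate 3. The log2 fold change was -0.25 (SE 0.12, 95% interval -0.52 to 0.01, unadjusted p = 0.0589, adjusted p = 0.989 by edgeR). It stayed negative in each of 18 alternatives, from -0.36 to -0.20.

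Vegfa, the growth factor that draws in blood vessels, and Ankrd37, an ankyrin repeat gene used as a hypoxia marker, both overlapped between the groups. Vegfa had 27.4, 24.9 and 25.3 CPM in STAT3+ CM, against 27.8, 24.6 and 30.8 CPM in STAT3- CM. The STAT3+ CM libraries lay within the range of STAT3- CM, and the log2 fold change was -0.10 (SE 0.13, 95% interval -0.40 to 0.20, adjusted p = 0.989 by edgeR). Ankrd37 had 9.69, 14.4 and 9.12 CPM in STAT3+ CM, against 12.2, 11.4 and 7.34 CPM in STAT3- CM. Its log2 fold change was 0.10 (SE 0.24, 95% interval -0.44 to 0.64, adjusted p = 0.992 by edgeR), and the highest and the lowest library were in different groups.

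**Figure D3:**
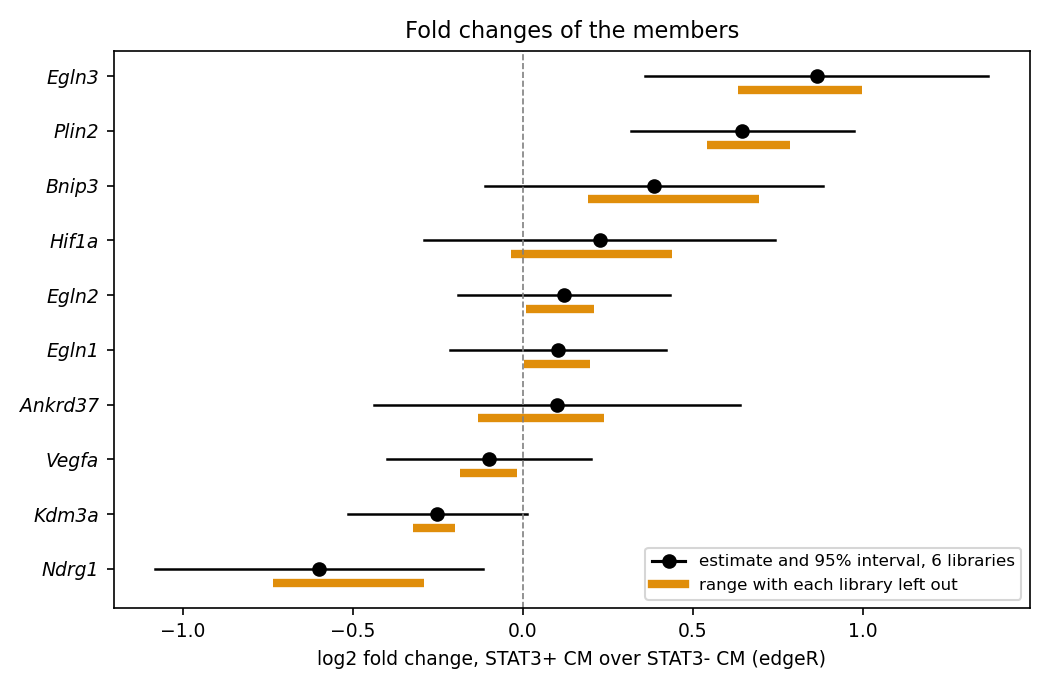
Log2 fold change of each gene, STAT3+ CM over STAT3- CM, by edgeR. Black points and lines give the estimate and its 95% interval over 6 libraries, and orange bars the range of the estimate with each library left out in turn. The intervals of Egln3, Plin2 and Ndrg1 leave out 0 before adjustment, and the orange bar of Ndrg1 is wide, from -0.74 to -0.29.

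The hypoxia-induced genes did not share 1 order across the libraries. STAT3+ CM replicate 1 had the most Hif1a and the most Egln3. STAT3- CM replicate 3 had the next most Hif1a, at 405 CPM, but the lowest Egln1, Egln2, Bnip3 and Ankrd37 and the highest Vegfa of the 6 libraries. STAT3- CM replicate 1 had the least Hif1a, Egln3 and Plin2 and the most Ndrg1. The mean standardized log2 CPM of the 8 HIF1-induced genes (all but Hif1a and Egln2) was 0.28, 0.30 and -0.29 SD units in STAT3+ CM, against -0.018, 0.10 and -0.37 in STAT3- CM. On that score the groups overlapped, and replicate 3 was the lowest of each group. The score ranked the 6 libraries in the reverse order of the TMM factors that scale their totals. These factors were 0.9632, 0.9605 and 1.033 in STAT3+ CM, against 0.9995, 0.9875 and 1.06 in STAT3- CM, in replicate order. Whether scaling shaped the score was not tested.

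**Figure D4:**
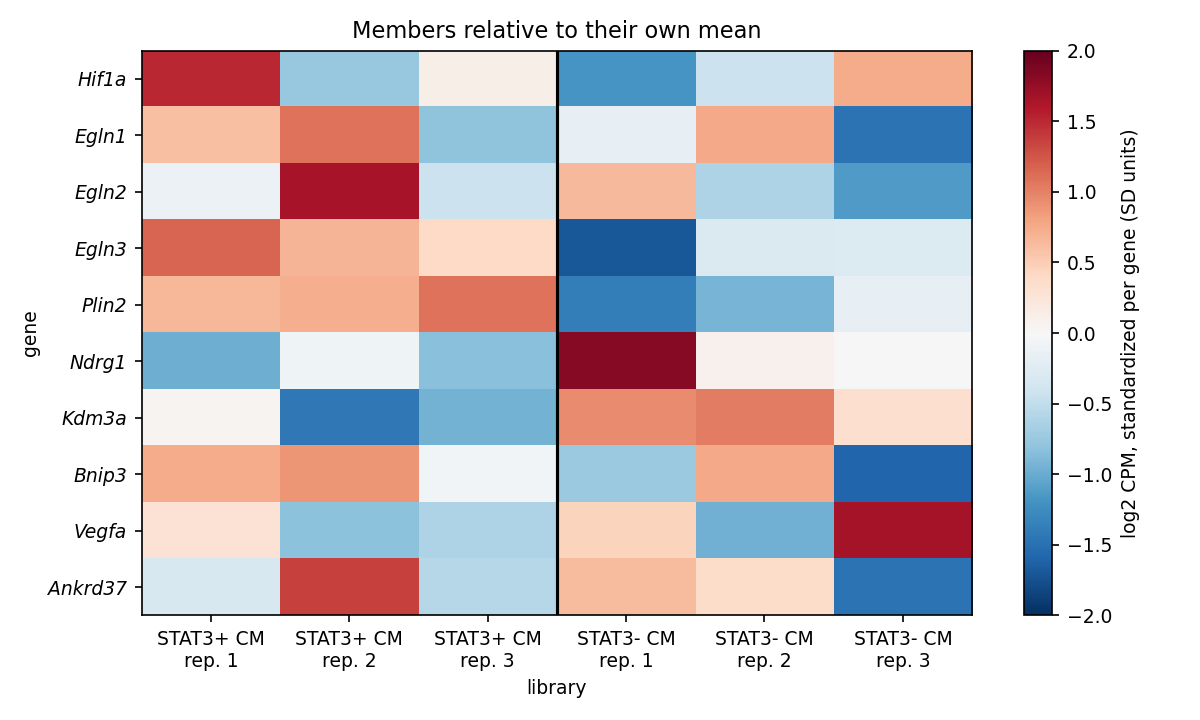
Log2 CPM of each gene, standardized over the 6 libraries and coloured from blue (below the gene's mean) to red (above it), with STAT3+ CM left of the black line. Egln3 and Plin2 lie above and Ndrg1 below the gene's mean in all 3 STAT3+ CM libraries (Ndrg1 only just in replicate 2, at -0.09), while Hif1a, Bnip3 and Ankrd37 are mixed in both groups.

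As a description, the genes outside the group whose log2 CPM followed that score most closely over the 6 libraries were Leng1 (Pearson's r = 0.997), Fancl (r = 0.994), and Rab29, Twf2 and Clta (r = 0.993 each). They were the top 5 of 12261 genes searched, of which 364 had an r over 0.9. All 5 were lowest in STAT3- CM replicate 3, the library with the highest TMM factor (1.06). What this likeness reflects was not tested.

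Per length, Hif1a was the most abundant of the 10, at 58.4 ± 15.6 CPM per kilobase of annotated exon (SD, n = 6 libraries). It was at the 93.3rd percentile of all genes with a length, and its lowest library was above the highest of Egln1. Egln1 (22.0 ± 2.65), Bnip3 (17.7 ± 4.61) and Egln2 (15.0 ± 1.75 CPM per kilobase) followed, with Egln1 overlapping Bnip3 and Bnip3 overlapping Egln2 in range. Next came Plin2 (10.0 ± 2.61), Kdm3a (9.91 ± 1.11), Egln3 (7.65 ± 2.85), Ankrd37 (6.95 ± 1.63), Vegfa (6.26 ± 0.553) and Ndrg1 (5.80 ± 2.01 CPM per kilobase), whose neighbours in this order overlapped in range. The lowest Egln2 library and the highest Plin2 library were nearly equal, and Bnip3 overlapped Plin2, Kdm3a and Egln3. Exon lengths are unions over annotated transcripts, so they understate the level of genes with long unused exons.

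Among the rest of the oxygen sensing machinery, 0 of 19 genes were without overlap, against 7.95% of all genes tested. Of 20 listed genes 19 were tested, 10 with positive and 9 with negative log2 fold changes, a median of 0.04, and 0 past the threshold by edgeR or DESeq2 (0 with an unadjusted p under 0.05 by edgeR, against 3.64% of all genes). With 19 genes, counts of 0 are near these shares. Arnt, Vhl and Hif1an are named for their roles. Arnt had 44.4 ± 7.03 CPM in STAT3+ CM, against 47.1 ± 5.51 CPM in STAT3- CM (SD, n = 3 each, as for the next genes). Vhl had 25.1 ± 3.32 CPM in STAT3+ CM, against 25.2 ± 3.68 CPM in STAT3- CM. Hif1an, which encodes the asparaginyl hydroxylase of HIF1A, had 48.9 ± 3.03 CPM in STAT3+ CM, against 54.1 ± 5.65 CPM in STAT3- CM. All 3 overlapped between the groups. The smallest p-values were those of Epas1, which encodes the paralog of HIF1A, Ep300, a coactivator, and Elob, a subunit of the VHL ligase. Epas1, with 9 to 50 reads per library, had 0.727, 0.216 and 0.506 CPM in STAT3+ CM, against 0.706, 0.703 and 1.08 CPM in STAT3- CM, with overlap (log2 fold change -0.76 with an SE of 0.40, adjusted p = 0.989 by edgeR). Ep300 had 49.9, 38.7 and 72.7 CPM in STAT3+ CM, against 71.5, 59.5 and 76.9 CPM in STAT3- CM (log2 fold change -0.36, SE 0.21). Elob had 185, 205 and 149 CPM in STAT3+ CM, against 153, 169 and 145 CPM in STAT3- CM (0.21, SE 0.14). Ep300 and Elob also overlapped between the groups, each with an adjusted p of 0.989 by edgeR. With each library left out in turn, the log2 fold change ran from -1.13 to -0.45 for Epas1, from -0.65 to -0.18 for Ep300 and from 0.10 to 0.33 for Elob. The largest sizes were reached without STAT3+ CM replicate 1 for Epas1 and without STAT3+ CM replicate 3 for Ep300 and Elob, and the smallest without STAT3+ CM replicate 2 for all 3.

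Other hypoxia-induced genes outside glycolysis went both ways. Of 41 listed 35 were tested, with 16 positive and 19 negative log2 fold changes, a median of -0.03, and 0 past the threshold by edgeR. An unadjusted p under 0.05 was found for 2 of 35, against 3.64% of all genes. The groups did not overlap in 4 of 35, against 7.95%, with Hilpda higher and Stc2, Ddit4 and Kdm4b lower in STAT3+ CM, of which Ddit4 and Kdm4b are named after their values were seen.

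Stc2, a secreted glycoprotein induced by hypoxia and by stress of the endoplasmic reticulum, had 11.6, 12.7 and 9.97 CPM in STAT3+ CM, against 20.4, 21.8 and 17.6 CPM in STAT3- CM. All STAT3+ CM libraries lay well below all STAT3- CM libraries. Its log2 fold change was -0.81 (SE 0.16), with an unadjusted p of 0.000424 and an adjusted p of 0.434 by edgeR. DESeq2 called it on the lower side, as 0.228% of all genes, with an adjusted p of 0.00465, and over 18 alternatives the adjusted p ran from 0.00465 to 1.

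Hilpda, which sits on lipid droplets like perilipin 2 and inhibits lipid breakdown, had 22.9, 27.5 and 20.3 CPM in STAT3+ CM, against 18.4, 18.0 and 14.3 CPM in STAT3- CM. The groups did not overlap (log2 fold change 0.48 with an SE of 0.17, unadjusted p = 0.0154, adjusted p = 0.989 by edgeR). Higd1a, a hypoxia-induced protein of the mitochondrial inner membrane, had 103, 111 and 87.5 CPM in STAT3+ CM, against 77.2, 93.5 and 78.9 CPM in STAT3- CM, where STAT3- CM replicate 2 lay among the STAT3+ CM libraries (log2 fold change 0.27 with an SE of 0.14, adjusted p = 0.989 by edgeR).

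**Figure D5:**
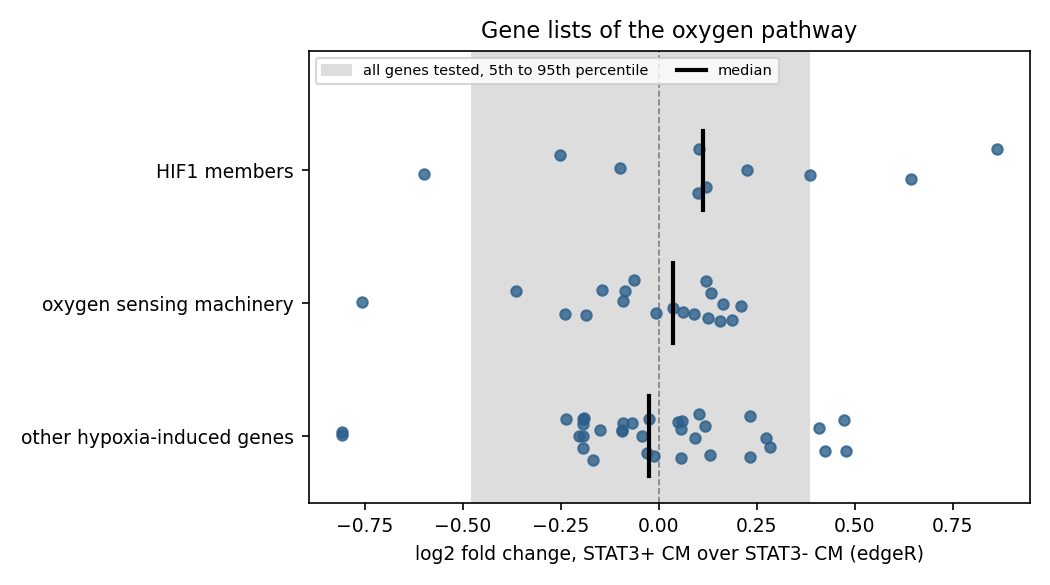
Log2 fold changes, STAT3+ CM over STAT3- CM by edgeR, of the 10 genes, of 19 other genes of the oxygen sensing machinery and of 35 other hypoxia-induced genes, 1 point per gene with the median as a black line. The grey band holds the 5th to 95th percentile of all genes tested, from -0.48 to 0.38, and of the 10 genes Egln3, Plin2, Ndrg1 and, narrowly, Bnip3 lie outside it.

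Markers of other cells were measured beside these results. All 8 CD8+ T cell markers were present, with a summed level of 2954 to 3726 CPM in STAT3+ CM, against 2931 to 3121 CPM in STAT3- CM. Each of the 8 had a positive log2 fold change, from 0.097 (Cd3e) to 0.25 (Cd247), with an adjusted p of 0.989 by edgeR. Cd247 (192 CPM in STAT3+ CM, against 162 CPM in STAT3- CM) and Lck (561 CPM against 516 CPM) did not overlap between the groups. The other CD8+ T cell markers overlapped. Of 14 dendritic cell and macrophage markers 8 had values, and their sum was 54.6 to 66.7 CPM in STAT3+ CM, against 83.1 to 123 CPM in STAT3- CM, without overlap. Most of it was Cd74, at 38.95 ± 4.98 CPM in STAT3+ CM, against 74.7 ± 22.1 CPM in STAT3- CM (SD, n = 3 each), which DESeq2 called with an adjusted p of 0.0127 and edgeR did not (adjusted p = 0.563). H2-Aa (1.26 CPM in STAT3+ CM, against 4.15 CPM in STAT3- CM, DESeq2 adjusted p = 0.00397, edgeR adjusted p = 0.533) and Zbtb46 (10.2 CPM in STAT3+ CM, against 15.6 CPM in STAT3- CM, edgeR adjusted p = 0.989) also stood lower without overlap. H2-Ab1 overlapped, at 8.21 CPM in STAT3+ CM, against 7.50 CPM in STAT3- CM. Itgax, Lyz2 and Cd14 each averaged under 1 CPM in both groups, and Flt3, Xcr1, Clec9a, Csf1r, Itgam and Mrc1 had no values. Adgre1, left out of the tests by the filter on low counts, had 0.022, 0.144 and 0.126 CPM in STAT3+ CM. In STAT3- CM it had 0.508, 0.426 and 0.087 CPM, with overlap. Of 9 astrocyte and glial markers 3 had values, with a sum of 8.92 to 16.5 CPM in STAT3+ CM, against 14.2 to 16.7 CPM in STAT3- CM. Endothelial and fibroblast markers (3 of 5 with values, nearly all of it Pecam1) summed to 35.0 to 48.1 CPM in STAT3+ CM, against 31.4 to 32.6 CPM in STAT3- CM, without overlap. Col1a1 (0.32 CPM in STAT3+ CM, against 0.38 CPM in STAT3- CM) and Pdgfrb (0.40 CPM in STAT3+ CM, against 0.46 CPM in STAT3- CM) overlapped. Cdh5 and Col1a2 had no values. The B cell marker Cd79b, 1 of 5 with values, stood at 10.9 to 11.9 CPM in STAT3+ CM, against 7.40 to 10.7 CPM in STAT3- CM, also without overlap. Sums of 3 of 3 CD4+ T cell markers (3.12 to 5.24 CPM in STAT3+ CM, against 2.85 to 4.13 CPM in STAT3- CM) and of 2 of 2 NK cell markers (0.740 to 2.71 CPM in STAT3+ CM, against 0.736 to 3.25 CPM in STAT3- CM) overlapped. The part of other cells in the values of Egln3, Plin2, Ndrg1, Kdm3a, Stc2 and Hilpda was not tested.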

How the data were processed

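Per the labels, polyadenylated RNA (500 ng of total RNA, mean quality score 9.4, range 9.0 to 9.8) went into directional NEBNext Ultra II libraries. The authors deposited whole-number read counts per gene, with 43346089 to 53630514 counts per library and a lowest gene total of 40. The tools in the submitters' processing notes are Bowtie 1.0.0, TopHat2 2.0.10, Cufflinks 2.2.1, SAMtools 0.1.19 and FastQC, and the build is GRCm39. Which program counted the reads, with which annotation and strand setting, is not given in the sources used here. In GENCODE M21, Hif1a, Egln2, Ndrg1, Bnip3 and Ankrd37 overlap other genes, mostly on the opposite strand, so their counts are less certain.

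Counts were filtered with filterByExpr (14319 genes kept, 162 left out), scaled by TMM and compared with edgeR 4.0.16 under R 4.3.3, by its robust quasi-likelihood F test, two-sided, at an adjusted p of 0.05. SEs were derived from F (the size of the log2 fold change divided by its root). Log2 CPM used a prior count of 2. Alternatives were other scalings and filters, DESeq2 1.42.0, limma 3.58.1 (voom, with and without quality weights), leaving out each library or the mitochondrially encoded genes, a block for the replicate number, and edgeR's earlier quasi-likelihood fit. A fit without the 2 outlying libraries, and alternatives for genes of the other lists, were added after the data were seen. The workflow was tested on simulated data. Exon lengths are from GENCODE M21 (GRCm38) and promoters from RefSeq (GRCm38.p6), not the authors' build.

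The genes, lists and tests were chosen with earlier results of these data known. The text names the 10 genes, the 3 genes of each other list with the smallest edgeR p, and the 5 genes most like the score. Arnt, Vhl, Hif1an, Ddit4, Kdm4b and the marker genes fall outside this rule and were named after their values were seen.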

Additional observations from a re-analysis of the deposited data

How the results depend on the processing

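Over all genes, DESeq2 called 48 genes and limma-voom with quality weights 16, against 0 by edgeR. With each library left out in turn edgeR called 0 to 18 genes (18 without STAT3- CM replicate 3 and 1 without STAT3- CM replicate 1), and 10 when the outlying libraries, STAT3+ CM replicate 1 and STAT3- CM replicate 3, were both removed. DESeq2 called 1 of the 10 genes (Plin2) and 1 of the other hypoxia-induced genes (Stc2), and each of the other alternatives called 0 in these lists and in the machinery list. Hif1a turned negative without STAT3+ CM replicate 1 (-0.034), Egln1 without both outlying libraries (-0.020), and Ankrd37 with quality weights (-0.030), without STAT3+ CM replicate 2 (-0.13), without STAT3- CM replicate 3 (-0.09) and without both outlying libraries (-0.0072). The cause was not tested. With each library left out in turn the log2 fold change ran from -0.034 to 0.44 for Hif1a, 0.0044 to 0.20 for Egln1 and -0.13 to 0.24 for Ankrd37. It came near 0 for Egln2 without STAT3+ CM replicate 2 (0.0095, range 0.0095 to 0.21) and for Vegfa without STAT3- CM replicate 3 (-0.017, range -0.18 to -0.017). The 7 genes other than Hif1a, Egln1 and Ankrd37 kept their direction in all 18 alternatives, and Egln3 and Plin2 had an unadjusted p under 0.05 in all 18. All 18 re-use the same libraries, so they are not independent, and the share of all genes that did likewise was not counted. With the replicate number as a block, edgeR called 0 genes, with 709 at an unadjusted p under 0.05. Deviations from the group means correlated across genes at -0.261, 0.281 and 0.182 between libraries of equal number, so the numbers were not taken as pairs. Only STAT3+ CM replicate 3 and STAT3- CM replicate 2 correlated best with the library of their own number. The highest correlation was 0.423, between STAT3+ CM replicate 2 and STAT3- CM replicate 1. Counts of 339 to 22395 reads per gene and library lay behind the 10 genes, but only 9 to 50 behind Epas1, whose level depth limits.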
